A study of Mus musculus with 12 samples.

Results

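The genes described here are 9 C-type lectin receptors of myeloid cells, Clec4a1, Clec4a2, Clec4a3, Clec4d, Clec4e, Clec4n, Clec5a, Clec7a and Clec12a, in RAW264.7 cells, a mouse macrophage line. They were taken by symbol from a table of 32688 genes, and all 9 were among the 18066 genes that passed the filter on low counts. RNA was sequenced from 12 libraries in 4 groups of 3. The lines were Null cells (WT in the study's text) and TFEB/TFE3 DKO cells, in which both of these related transcription factors were targeted with CRISPR-Cas9. Each line was taken as control and after 8 h with etoposide at 100 µM, a drug that causes DNA breaks by trapping topoisomerase II. The labels call the controls untreated and the study's methods name DMSO. Each genotype is 1 cell line, so loss of the factors cannot be told apart from other differences between these lines. The study calls the etoposide-treated samples of each line independent, and neither it nor the labels say whether the libraries came from separate cultures, so p-values measure the spread between these libraries, which may be technical.

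C-type lectin receptors recognise sugars, lipids and products of dead cells at the surface of macrophages, dendritic cells and neutrophils. The activating ones either couple to an adapter that carries tyrosine activation motifs, such as the Fc receptor gamma chain (Fcer1g) or DAP12 (Tyrobp), or carry a single such motif themselves. Both routes recruit the kinase Syk, and Card9 links Syk to NF-κB and cytokine genes. The inhibitory ones carry a motif that binds phosphatases such as SHP-1 (Ptpn6).

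Total counts ran from 29837255 to 61809316 per library. As a check of the labels, Tfe3 lay at 31.5 to 42.5 CPM (counts scaled to a common library size, after scaling by trimmed mean of M values) in the 6 DKO libraries and at 89.4 to 119 CPM in the 6 Null libraries, and Tfeb at 3.14 to 5.25 CPM against 7.10 to 17.2 CPM. Transcripts of both genes thus remained in DKO cells. MEFs, an abbreviation for mouse embryonic fibroblasts, appears in the titles of all 3 etoposide-treated DKO libraries, while their other labels say RAW264.7. Of 10 macrophage markers, 9 were above 1 CPM in every library, Mertk being at most at 0.189 CPM, and the list summed to 4400 to 6269 CPM. Single markers went both ways within this sum. Fcgr1 was at 66.9 to 74.3 CPM in Null control and 4.72 to 5.42 CPM in DKO etoposide libraries. Cd14 was at 235 to 410 CPM and 1084 to 1494 CPM in these groups. The 8 fibroblast markers summed to 0.152 to 2.04 CPM, and to 1.01 to 1.20 CPM in the DKO etoposide libraries, with Pdgfrb the highest at no more than 1.38 CPM in any library. Of the other lists, 6 neutrophil markers summed to at most 0.400 CPM, 4 lymphocyte markers in the table to at most 0.875 CPM, and 5 dendritic cell markers in the table to 2.62 to 2.63 CPM in Null control, 1.80 to 2.15 in DKO control, 2.72 to 3.14 in Null etoposide and 3.30 to 3.97 in DKO etoposide libraries. This last list was thus highest in the group where 6 of the receptors were highest, through Xcr1, which rose 4.68-fold in DKO cells (adjusted p = 3.16e-06, limma-trend) to 2.02 to 2.71 CPM, while Flt3, Ccr7 and Batf3 were at most at 0.174 CPM in any library and Zbtb46 was lowest there (mean 1.28 CPM). In bulk RNA, more expressing cells and more RNA per cell cannot be told apart.

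All 9 genes lie on chromosome 6 (GRCm38, GENCODE M21). Clec5a stands alone at 40574894 to 40585821 on the minus strand. Clec4a1 (122921848 to 122934619), Clec4a3 (122952515 to 122969875), Clec4a2 (123106428 to 123143999), Clec4n (123229843 to 123247021) and Clec4d (123262111 to 123275265), all on the plus strand, and Clec4e (123281789 to 123289870, minus strand) form the Dectin-2 cluster. Clec12a (129342691 to 129365303, plus strand) and Clec7a (129461591 to 129472779, minus strand) belong to the Dectin-1 cluster of the natural killer complex. The exons of 0 of the 9 genes overlapped those of another annotated gene. A search of annotated transcripts for shared stretches of 75 bases, the read length, found 3.24% of those of Clec4a2 in other genes, mostly Clec4a4, and none for the other members, so the counts of Clec4a2 carry a small uncertainty. Clec7a is annotated there as a polymorphic pseudogene, a class for genes that are intact in some strains.

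The stretches upstream of 4 members are shown because Clec4d and Clec4e are neighbours that rose together, Clec5a was the most counted member in control cells and Clec7a changed in opposite directions in Null and DKO cells. They come from RefSeq (GRCm38.p6), run 5′ to 3′ on the gene's strand and end just before the annotated start, and 8 of the 9 members had such a window, Clec4n being the one without. Capitals mark CATGTG, an E-box variant of the kind that TFEB and TFE3 can bind, and GAGGAA, the core of the site of the myeloid factor PU.1, each on either strand.
Clec4d, chr6:123261857-123262106, plus strand: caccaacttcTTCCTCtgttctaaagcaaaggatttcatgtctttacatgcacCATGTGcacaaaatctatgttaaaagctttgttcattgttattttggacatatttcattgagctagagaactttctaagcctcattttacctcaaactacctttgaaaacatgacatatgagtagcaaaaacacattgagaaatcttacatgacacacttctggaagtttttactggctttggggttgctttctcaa
Clec4e, chr6:123289872-123290121, minus strand: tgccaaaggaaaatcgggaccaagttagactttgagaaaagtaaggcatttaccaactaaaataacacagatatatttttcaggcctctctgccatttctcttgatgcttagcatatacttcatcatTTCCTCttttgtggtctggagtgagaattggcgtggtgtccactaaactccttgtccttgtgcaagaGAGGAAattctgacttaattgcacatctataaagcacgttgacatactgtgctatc
Clec5a, chr6:40585822-40586055, minus strand: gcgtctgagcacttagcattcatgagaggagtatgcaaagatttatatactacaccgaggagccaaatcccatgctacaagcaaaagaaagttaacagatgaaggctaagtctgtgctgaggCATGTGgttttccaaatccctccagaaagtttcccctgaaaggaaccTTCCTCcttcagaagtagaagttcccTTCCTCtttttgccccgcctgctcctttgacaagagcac
Clec7a, chr6:129472780-129473029, minus strand: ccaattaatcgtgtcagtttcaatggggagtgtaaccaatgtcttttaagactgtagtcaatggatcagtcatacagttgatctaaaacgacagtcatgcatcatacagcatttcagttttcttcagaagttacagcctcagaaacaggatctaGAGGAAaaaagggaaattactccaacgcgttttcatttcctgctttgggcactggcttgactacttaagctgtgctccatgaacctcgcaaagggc

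The symmetric E-box CACGTG, the core of the CLEAR element, occurred in 0 of the 10 windows of the members, counted from 250 bases before to 50 after the start, against 7.15% of 32851 windows of all genes. CATGTG occurred in 5 of the 10, from 4 members (Clec4a2, Clec4a3, Clec4d and Clec5a), against 14.15% of all windows. GAGGAA occurred in 8 of the 10, from 7 members, against 28.28% of all windows. Windows of one gene overlap, and a match describes letters and not a bound site.

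The first question was how the receptors responded to etoposide in each line, and how the lines differed before and after it. After etoposide, 6 members rose and 2 fell in Null cells, and 6 rose and 3 fell in DKO cells, where a change was called at an adjusted p under 0.05 by limma-trend with Benjamini-Hochberg adjustment over all genes tested. Among all genes, 39.6% were called in Null cells (20.9% higher and 18.7% lower) and 39.3% in DKO cells (20.2% higher and 19.1% lower). DKO control cells had 6 members higher and 2 lower than Null control cells, against 19.3% of all genes called (10.9% higher and 8.39% lower). DKO etoposide cells had 7 members higher and 2 lower than Null etoposide cells, against 33.6% of all genes (15.9% higher and 17.8% lower). The median log2 difference of the members was 0.68, 1.38, 0.60 and 1.08 in these comparisons, in the order given, while that of all genes tested lay between -0.01 and 0.03. The 4 comparisons share groups with each other and are not independent. The members' libraries did not overlap between groups for 8, 9, 8 and 9 of 9 members, against 53%, 46.4%, 27.6% and 55.6% of all genes.

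**Figure D1:**
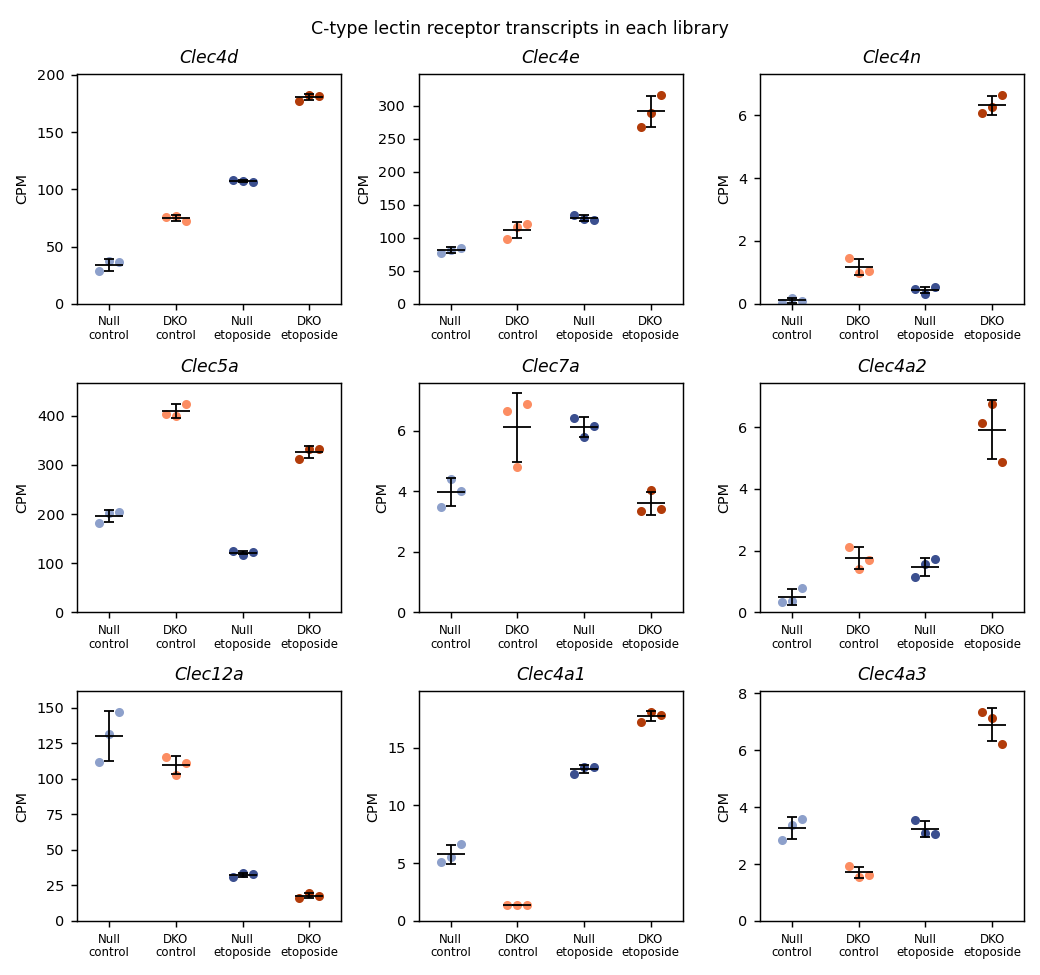
Level of each receptor transcript (CPM, linear axes from 0) in each of the 12 libraries, with points for libraries and bars for the mean ± SD of 3. Clec4d, Clec4e, Clec4n, Clec4a1, Clec4a2 and Clec4a3 were highest in DKO etoposide cells, Clec5a in DKO control cells and Clec12a in control cells of both lines.

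Clec4d, also called MCL or Dectin-3, pairs with the gamma chain and acts with Mincle. It read 28.3, 37.5 and 36.4 CPM in Null control, 76.0, 76.8 and 72.1 in DKO control, 108, 107 and 107 in Null etoposide, and 177, 182 and 182 in DKO etoposide libraries. The 4 groups did not overlap and rose in that order. Etoposide raised Clec4d 3.17-fold in Null cells (log2 1.66 ± 0.09 SE, adjusted p = 5.41e-08, limma-trend) and 2.41-fold in DKO cells (log2 1.27 ± 0.09, adjusted p = 3.78e-07). DKO cells held 2.22-fold more in control (log2 1.15) and 1.68-fold more after etoposide (log2 0.75). The response in DKO cells minus that in Null cells, the interaction, was -0.40 on the log2 scale with a 95% interval of -0.68 to -0.11, and did not pass after adjustment over all genes (adjusted p = 0.0904, limma-trend). With DESeq2 this difference passed (log2 -0.37, adjusted p = 0.0412).

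Clec4e encodes Mincle, which pairs with the gamma chain and recognises mycobacterial glycolipid and the nuclear protein SAP130 released by dead cells. It lay at 76.2, 81.5 and 85.1 CPM in Null control, 98.4, 116 and 121 in DKO control, 135, 129 and 126 in Null etoposide, and 268, 289 and 316 in DKO etoposide libraries. The order of the groups was that of Clec4d, again without overlap, and the DKO etoposide libraries stood far above the rest. Etoposide raised Clec4e 1.60-fold in Null cells (log2 0.68 ± 0.09 SE, adjusted p = 7.03e-05, limma-trend) and 2.61-fold in DKO cells (log2 1.38 ± 0.09, adjusted p = 1.20e-07). The rise was larger in DKO cells by 0.70 ± 0.13 on the log2 scale (adjusted p = 0.00353, limma-trend). DKO cells exceeded Null cells 1.38-fold in control and 2.24-fold after etoposide. For these 2 neighbouring genes the interaction estimates had opposite signs, and the difference between the genes was not tested.

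Clec4n encodes Dectin-2, a gamma chain receptor for fungal mannans. It was the least counted member, with 0.0324, 0.182 and 0.103 CPM in Null control libraries, 15 counts in all, which was under the minimum of the filter, so that it was tested because of the other groups. Levels were 1.47, 0.987 and 1.04 CPM in DKO control, 0.471, 0.322 and 0.521 in Null etoposide, and 6.05, 6.26 and 6.64 in DKO etoposide libraries. All 4 groups were separate, with DKO etoposide well above the others. Summed counts scaled to depth were 10.1 times higher in DKO than in Null control cells (exact 95% interval 5.96 to 18.5, for counting error only) and 14.4 times higher after etoposide (11.4 to 18.6). The fitted log2 differences were 2.98 ± 0.31 SE (adjusted p = 1.85e-05, limma-trend) and 3.70 ± 0.31 (adjusted p = 1.62e-06), and they understate low genes because of the prior count. Etoposide raised Clec4n in both lines, by 1.68 on the log2 scale in Null and 2.40 in DKO cells. The interaction was 0.73 with a 95% interval of -0.24 to 1.69 and did not pass, an interval that holds both a smaller and a larger response in DKO cells.

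Clec5a encodes MDL-1, which pairs with DAP12 and DAP10 and is known as a receptor for dengue virus. It read 181, 202 and 204 CPM in Null control, 404, 400 and 425 in DKO control, 124, 118 and 123 in Null etoposide, and 311, 333 and 333 in DKO etoposide libraries. Every DKO library was above every Null library, and within each line the etoposide libraries were below the controls. Clec5a was the one adapter-coupled member that fell with etoposide, by 0.68 on the log2 scale in Null cells (SE 0.07, adjusted p = 6.85e-06, limma-trend) and by 0.33 in DKO cells (SE 0.07, adjusted p = 0.00200). It was 2.10-fold higher in DKO control cells (log2 1.07 ± 0.07, adjusted p = 2.21e-07) and 2.68-fold higher in DKO etoposide cells (log2 1.42 ± 0.07, adjusted p = 9.15e-09). The smaller fall in DKO cells, an interaction of 0.35 ± 0.10, was near the threshold (adjusted p = 0.0387, limma-trend). It passed without Null control replicate 1, DKO control replicate 1 or DKO control replicate 3, but not without any 1 of the other 9 libraries (log2 0.32 to 0.38, adjusted p = 0.0528 to 0.109).

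**Figure D2:**
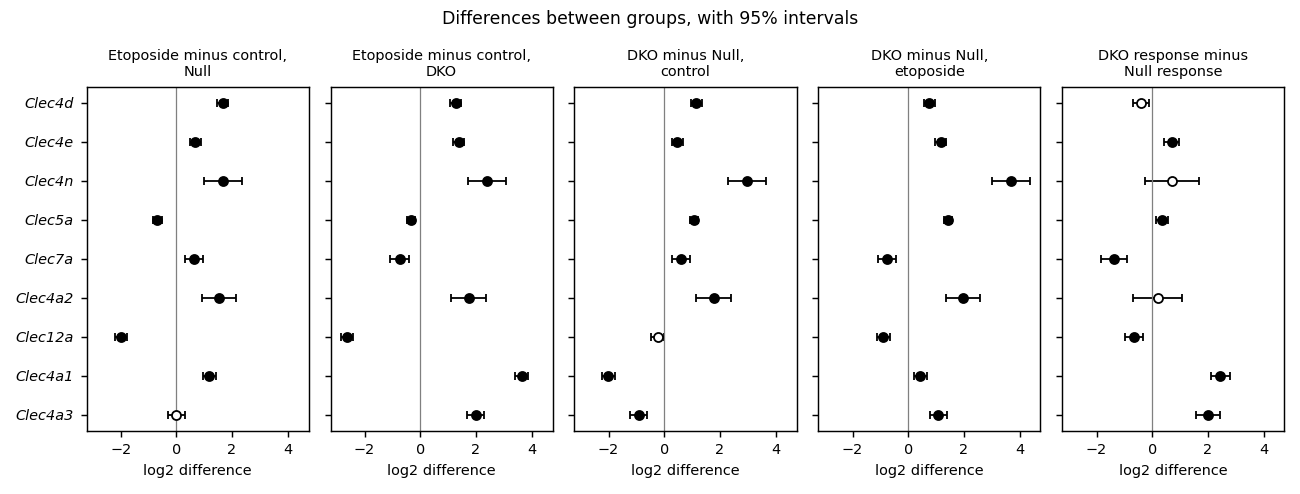
Log2 differences of the 9 receptors (points) with 95% intervals from limma-trend, in 5 comparisons, one to a panel. Filled points passed an adjusted p of 0.05 and open points did not: Clec4a3 in the Null response, Clec12a between the control groups, and Clec4d, Clec4n and Clec4a2 in the difference of responses.

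Clec7a encodes Dectin-1, the β-glucan receptor, which signals through a tyrosine motif of its own. Its levels were low, at 3.47, 4.40 and 4.02 CPM in Null control, 6.63, 4.79 and 6.89 in DKO control, 6.42, 5.78 and 6.14 in Null etoposide, and 3.34, 4.02 and 3.42 in DKO etoposide libraries. The Null control and DKO etoposide groups overlapped at the low level, and the DKO control and Null etoposide groups overlapped at the high level. Etoposide raised Clec7a 1.54-fold in Null cells (log2 0.62 ± 0.15 SE, adjusted p = 0.00598, limma-trend) and lowered it 1.67-fold in DKO cells (log2 -0.74 ± 0.15, adjusted p = 0.00195). It was the only member called in opposite directions in Null and DKO cells, and its interaction was -1.36 ± 0.22 (adjusted p = 0.00134, limma-trend). DKO cells were 1.52-fold higher in control (log2 0.60, adjusted p = 0.0135, limma-trend) and 1.69-fold lower after etoposide (log2 -0.76, adjusted p = 0.00196). The control difference rested on DKO control replicate 3, without which it was 0.51 (adjusted p = 0.0584), and it also missed the threshold in a fit of the control groups alone (adjusted p = 0.0922).

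Clec12a encodes MICL, an inhibitory receptor that recognises uric acid crystals. It stood at 112, 132 and 147 CPM in Null control, 115, 103 and 111 in DKO control, 31.2, 34.0 and 32.7 in Null etoposide, and 16.1, 19.6 and 17.2 in DKO etoposide libraries. The control groups overlapped, and every etoposide library lay far below them. Etoposide lowered Clec12a 3.96-fold in Null cells (log2 -1.98 ± 0.10 SE, adjusted p = 3.17e-08, limma-trend) and 6.22-fold in DKO cells (log2 -2.64 ± 0.10, adjusted p = 1.07e-09). The fall was deeper in DKO cells by an interaction of -0.65 ± 0.15 (adjusted p = 0.0139, limma-trend), and after etoposide DKO cells were 1.85-fold lower than Null cells. The control difference was -0.24 with a 95% interval of -0.46 to -0.01 (adjusted p = 0.148, limma-trend). It passed without Null control replicate 1, the lowest of its group (log2 -0.34, adjusted p = 0.0257), and when libraries were scaled by their totals alone (log2 -0.32, adjusted p = 0.0480).

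Clec4a2 encodes DCIR, the other receptor with an inhibitory motif. It was scarce, at 0.324, 0.384 and 0.783 CPM in Null control, 2.12, 1.42 and 1.71 in DKO control, 1.14, 1.55 and 1.72 in Null etoposide, and 6.14, 6.77 and 4.87 in DKO etoposide libraries. DKO etoposide libraries were above all others, while DKO control and Null etoposide overlapped. Clec4a2 rose with etoposide 2.89-fold in Null (log2 1.53 ± 0.28 SE, adjusted p = 0.000935, limma-trend) and 3.32-fold in DKO cells (log2 1.73 ± 0.28, adjusted p = 0.000381). DKO cells had 3.41-fold more in control and 3.93-fold more after etoposide. The interaction was 0.20 with a 95% interval of -0.67 to 1.08 and did not pass. The 2 inhibitory receptors thus moved in opposite directions with etoposide in both lines.

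Clec4a1 and Clec4a3 are close relatives of DCIR in the same cluster. Clec4a1 read 5.09, 5.57 and 6.68 CPM in Null control, 1.37, 1.40 and 1.34 in DKO control, 12.7, 13.3 and 13.3 in Null etoposide, and 17.2, 18.1 and 17.8 in DKO etoposide libraries. The groups were separate, with the DKO line lowest before etoposide and highest after it. Etoposide raised Clec4a1 2.27-fold in Null cells (log2 1.18 ± 0.11 SE, adjusted p = 2.80e-06, limma-trend) and 12.4-fold in DKO cells (log2 3.63 ± 0.11, adjusted p = 7.10e-11). DKO cells were 4.06-fold lower in control (log2 -2.02, adjusted p = 3.78e-08, limma-trend) and 1.35-fold higher after etoposide (log2 0.43, adjusted p = 0.00788), and the interaction of 2.45 ± 0.15 was the largest among the members (adjusted p = 3.58e-07).

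Clec4a3 showed the same change of order at lower levels, with 2.85, 3.37 and 3.59 CPM in Null control, 1.93, 1.56 and 1.62 in DKO control, 3.57, 3.09 and 3.07 in Null etoposide, and 7.34, 7.12 and 6.23 in DKO etoposide libraries. Both Null groups overlapped, DKO control libraries were below them and DKO etoposide libraries above. In Null cells the log2 difference with etoposide was -0.01 with a 95% interval of -0.31 to 0.29 (adjusted p = 0.965, limma-trend), while in DKO cells Clec4a3 rose 3.95-fold (log2 1.98 ± 0.14 SE, adjusted p = 2.30e-07). The interaction was 1.99 ± 0.20 (adjusted p = 2.65e-05, limma-trend). DKO cells were 1.89-fold lower in control and 2.11-fold higher after etoposide.

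The difference between the lines' responses was called for 6 of the 9 members, against 9.45% of all genes (3.07% positive and 6.39% negative). It was positive for Clec4a1, Clec4a3, Clec4e and Clec5a and negative for Clec7a and Clec12a. The direction of response was shared by the lines for 7 members, opposite for Clec7a and called in DKO cells but not in Null cells for Clec4a3.

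**Figure D3:**
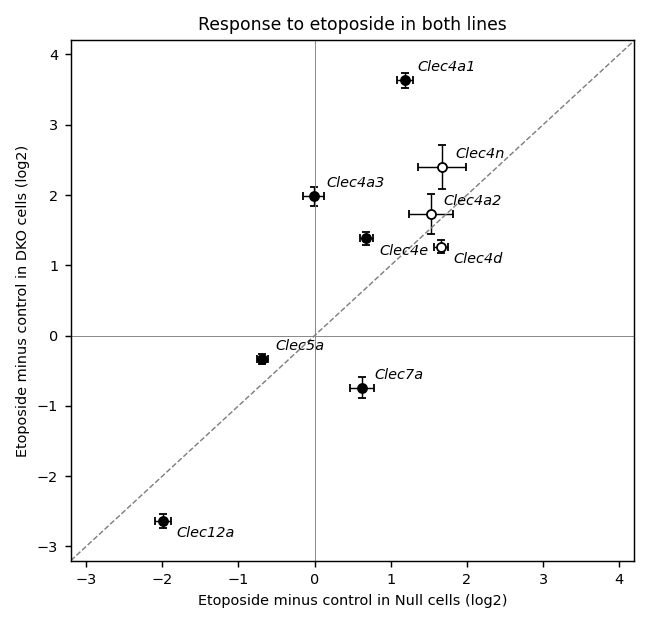
Etoposide response in DKO cells against that in Null cells (both log2, ± SE) for the 9 receptors, with a dashed line where both are equal. Filled points had a called difference between responses. Of the filled points, Clec4a1, Clec4a3, Clec4e and Clec5a lie above the line and Clec7a and Clec12a below it.

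Levels of different genes were set side by side as CPM per kilobase of the transcript with the longest coding sequence. Clec5a led in all 4 groups, at 228 ± 15 CPM per kb in Null control (SD, n = 3) against 52.0 ± 7.1 for Clec12a, the next. In DKO etoposide cells, Clec5a was at 379, Clec4d at 136 and Clec4e at 116 CPM per kb, and the remaining members were at 11.4 or below. Clec12a was at 7.06 CPM per kb there. Ranks near the top depended on the length used: with the summed length of all annotated exons, Clec4d was above Clec5a after etoposide (113 against 84.8 CPM per kb in DKO cells, 67.0 against 31.7 in Null cells).

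The genes through which these receptors signal were described from a list of 23, all tested. In Null cells 1 rose and 10 fell with etoposide, in DKO cells 5 rose and 6 fell, and between the lines 2 were higher and 7 lower in DKO control cells and 10 higher and 2 lower in DKO etoposide cells. The shares of all genes called in these comparisons were 39.6%, 39.3%, 19.3% and 33.6%. The median log2 differences of the list were -0.31, -0.10, -0.16 and 0.14. The difference of 9 between the control groups was sensitive, with 5 called without Null control replicate 2 and 2 in a fit of the control groups alone.

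Syk, the kinase that all the activating receptors share, was at 96.5, 83.8 and 82.2 CPM in Null control, 7.51, 10.2 and 10.8 in DKO control, 97.7, 100 and 97.3 in Null etoposide, and 12.5, 11.7 and 12.7 in DKO etoposide libraries. All 6 DKO libraries lay far below all 6 Null libraries. The log2 difference was -3.21 ± 0.12 SE in control (adjusted p = 2.00e-09, limma-trend) and -3.00 ± 0.12 after etoposide (adjusted p = 1.63e-09). So in the line where Clec4d, Clec4e, Clec4n and Clec5a transcripts were higher, the Syk transcript was lower, in both conditions. Whether one moved because of the other was not tested.

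The adapters changed less. Fcer1g, the gamma chain, ranged from 60.8 to 129 CPM over the 12 libraries, spread widely within the control groups, and passed in none of the comparisons between groups, with log2 differences from -0.39 to 0.09. Without DKO control replicate 1, the highest of its group, it was lower in DKO than in Null control cells (log2 -0.63, adjusted p = 0.0336, limma-trend). Tyrobp (DAP12) was at 231 to 238 CPM in Null control, 220 to 240 in DKO control, 191 to 205 in Null etoposide and 263 to 280 in DKO etoposide libraries. It fell by 0.23 on the log2 scale with etoposide in Null cells (adjusted p = 0.0109, limma-trend) and rose by 0.23 in DKO cells (adjusted p = 0.0125). The 2 responses differed by 0.46 ± 0.09 (adjusted p = 0.00566, limma-trend). The fall in Null cells missed the threshold without Null etoposide replicate 3 (log2 -0.20, adjusted p = 0.0600), and the rise in DKO cells missed it in a fit of the DKO groups alone (log2 0.22, adjusted p = 0.0741). Hcst (DAP10) lay at 3.75 to 5.35 CPM and Card9 at 45.0 to 77.9 CPM, and neither passed in any comparison with all 12 libraries. Card9 passed in the DKO response without DKO control replicate 3 (log2 -0.44, adjusted p = 0.0279, limma-trend) and between the lines after etoposide in a fit of these groups alone (log2 -0.25, adjusted p = 0.0297).

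**Figure D4:**
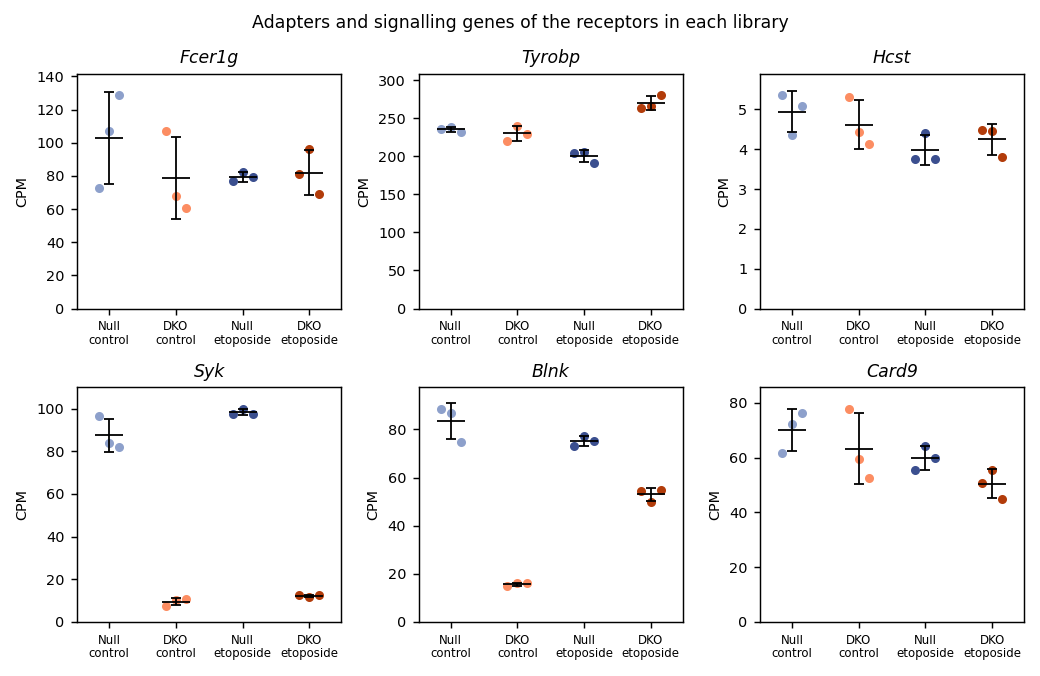
Levels (CPM, linear axes from 0) of 3 adapters (Fcer1g, Tyrobp, Hcst) and of Syk, Blnk and Card9 in each library, with bars for the mean ± SD of 3. Syk was at 7.51 to 12.7 CPM in the 6 DKO libraries and at 82.2 to 100 CPM in the 6 Null libraries, while the adapters overlapped between the control groups.

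Blnk, an adapter downstream of Syk, was at 74.9 to 88.6 CPM in Null control and a mean of 15.6 CPM in DKO control libraries, a log2 difference of -2.41 ± 0.08 SE (adjusted p = 5.95e-10, limma-trend). It rose in DKO cells with etoposide to a mean of 53.1 CPM (log2 1.76, adjusted p = 3.15e-09), and the interaction was 1.91 ± 0.11. Of the 3 phosphatases of the inhibitory branch, Inpp5d (SHIP1) fell by 1.09 on the log2 scale with etoposide in Null cells and by 0.58 in DKO cells, and Ptpn6 (SHP-1) fell by 1.08 and by 0.41. Ptpn11 (SHP-2) passed in neither line, with log2 differences of -0.11 and -0.01. The kinase Lyn had an interaction of 0.81 near the threshold (adjusted p = 0.0403, limma-trend), and the call was lost in 9 of 12 fits that each left out 1 library (adjusted p = 0.0822 to 0.0991). Fgr, of the same kinase family, was 0.94 higher on the log2 scale in DKO etoposide cells. Src rose by 2.98 in Null and 2.86 in DKO cells but from at most 9 counts in any control library.

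Of 15 genes known to be induced through Syk and Card9, 11 were tested. With etoposide 11 rose in Null cells and 8 in DKO cells, and none fell. DKO control cells had 10 of them higher and none lower, and DKO etoposide cells had 6 higher and 1 lower, against 39.6%, 39.3%, 19.3% and 33.6% of all genes called in these comparisons. In a fit of the control groups alone, 5 genes of the list passed between the lines. The cytokine Il1b rose by 5.52 ± 0.39 SE on the log2 scale in Null and 7.46 ± 0.39 in DKO cells, the chemokine Cxcl2 by 5.11 and 4.33, Ptgs2 by 3.26 and 2.33, and Il10 by 1.99 and 4.14, each in Null and then DKO cells. Ptgs2 and Il10 were higher in DKO than in Null cells in control (log2 2.05 and 1.68) and after etoposide (1.13 and 3.84). Low counts in control libraries limit the differences of Il10 and Il1b. Il10 had 4 to 5 counts in each Null control library, and Il1b 4 to 37 in Null control and 6 to 16 in DKO control libraries. The median of the list was 1.99, 2.29, 0.84 and 0.41 in the 4 comparisons. Many other pathways induce these genes, and their dependence on the receptors was not tested. Of 4 genes of endogenous ligands, 3 were tested, and Anxa1, which encodes a ligand of Dectin-1, was higher in DKO cells by 0.53 in control and 0.64 after etoposide, whereas Sap130 and Anxa5 passed in none of the comparisons.

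Other C-type lectin genes were mostly silent: 11 of 31 listed were tested. The neighbours of the members in the Dectin-2 cluster, Clec4a4, Clec4b1 and Clec4b2, were at most at 0.164, 0.0350 and 0.0700 CPM in any library. Mrc1, the macrophage mannose receptor, was at most at 0.133 CPM. Of the 11, 3 rose and 4 fell with etoposide in Null cells, 3 rose and 2 fell in DKO cells, 3 were higher and 3 lower in DKO control cells, and 2 were higher and 2 lower in DKO etoposide cells. The shares of all genes called in these comparisons were again 39.6%, 39.3%, 19.3% and 33.6%. The 5 called in DKO cells became 3 without DKO control replicate 3, DKO etoposide replicate 1 or DKO etoposide replicate 2. Among abundant ones, the scavenger receptor Colec12 was higher in DKO cells after etoposide (180 to 193 against 97.7 to 108 CPM, log2 0.87). It was also above Null cells in control, at 298 to 313 against 202 to 216 CPM. The B cell receptor modulator Cd72 read 281 to 293 CPM in Null control, 204 to 208 in DKO control, 141 to 154 in Null etoposide and 209 to 219 in DKO etoposide libraries, with an interaction of 1.04. Exons of Cd72 overlap those of Tesk1 on the other strand, and as the strand setting of the counting is not stated, up to 19.4% of its counts in a library could come from there.

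Genes with the most similar pattern were sought by the root mean square difference of the 4 group means of log2 CPM, each gene centred on its own mean. Over these 4 points, Clec5a was nearest to Ica1 (0.0175), Clec4d to Sccpdh (0.0246) and the pseudogene Slfn10-ps (0.0505), Clec7a to Rec8 (0.0404), and Clec4e to Runx2 (0.0651) and Bcl3 (0.0727). Clec4a2 was nearest to Spred3 (0.112), Clec12a to Fry (0.119) and Slc7a5 (0.163), Clec4a3 to Xcr1 (0.144), Clec4n to Flnc (0.254) and Clec4a1 to Mir5130 (0.341), so the patterns of Clec4n and Clec4a1 had the least close matches. This distance is not scaled to the size of a gene's changes, so members with large changes can have larger distances. Some matches were scarce, with group means of at most 0.535 CPM for Rec8 and 0.139 CPM in DKO control for Mir5130. Among the members themselves, Clec4d and Clec4e were each other's nearest (0.356). Xcr1 is the dendritic cell marker that rose in DKO cells, and the part of such cells in the levels of the receptors was not tested.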

How the data were processed

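RNA from 12 RAW264.7 libraries was analysed. According to the study's methods, the authors prepared rRNA-depleted stranded libraries, trimmed reads where needed, mapped them by HISAT2, and counted pairs that mapped uniquely with HTSeq on GENCODE. The submitters' processing notes name HISAT2, featureCounts and mm10. Strand setting and annotation release are not given in the sources used here. Raw counts for each gene were deposited, not normalized or pooled. Keeping unique pairs lowers counts of near-identical genes.

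Symbols came from GENCODE M21 (GRCm38). Members and lists were chosen with earlier results of these data known. Groups came from sample labels. The labels name 2 RNA kits without assigning them to libraries, so a kit effect was not tested.

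filterByExpr of edgeR 4.0.16 kept 18066 genes (99.96% of counts). TMM factors ran from 0.939 to 1.03. Log2 CPM with a prior count of 3 was fitted in R 4.3.3 by limma 3.58.1 (limma-trend, robust empirical Bayes, as in the study), with 1 mean per group over 12 libraries, 5 contrasts and two-sided Benjamini-Hochberg adjusted p-values, called under 0.05. The model was tested on simulated data. Intervals for summed counts are exact and cover counting error only. Named were all members, Tfeb, Tfe3, Fcer1g, Tyrobp, Hcst, Syk and Card9, the 3 called genes per list and contrast with the largest change, and the 2 genes nearest each member in pattern, of which the text gives part, and 1 gene that the rule named is not reported here. Ptpn11, Mrc1, Clec4a4, Clec4b1, Clec4b2, Sap130 and Anxa5 were named after their values were seen. Alternatives were edgeR's quasi-likelihood test, DESeq2 1.42.0, other scalings, filters and prior counts, a fold threshold, only the groups compared, a replicate block and leaving out each library. Promoters were RefSeq windows. Some lie inside the annotated gene, and from the printed Clec5a stretch the bases past the annotated start were removed. Protein sequences were not used here.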

Additional observations from a re-analysis of the deposited data

Results flagged for a closer look

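The listed genes responded differently to etoposide in Null and DKO cells, by a limma-trend test of the DKO response minus the Null response with Benjamini-Hochberg adjustment, all on the log2 scale. Among the receptors, the difference was 2.45 for Clec4a1, 1.99 for Clec4a3, 0.70 for Clec4e, 0.35 for Clec5a, -1.36 for Clec7a and -0.65 for Clec12a. In Clec4a1 and Clec4a3 the DKO line went from below the Null line to above it, and in Clec7a from above to below. Of these, the call of Clec5a was lost in 9 of 12 fits that each left out 1 library.

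The difference was called for 7 of the 23 signalling genes, all positive, against 9.45% of all genes. Among these genes it was 1.91 for Blnk, 0.81 for Lyn and 0.46 for Tyrobp. Among other lectin genes it was 2.47 for Clec2d, which was at most at 1.53 CPM in any library, 1.04 for Cd72 and 0.33 for Colec12. Among genes known to be induced through Syk and Card9 it was -2.18 for the transcription factor Egr2, 2.15 for Il10 and 1.93 for Il1b. Il10 had at most 5 counts in any Null control library, and Il1b at most 16 in any DKO control library. Leaving out 1 library at a time, the call of Lyn was lost in 9 of 12 fits (log2 0.67 to 0.83, adjusted p up to 0.0991), all but those without Null control replicate 1, DKO control replicate 1 or DKO etoposide replicate 3. That of Colec12 was lost in 9 (log2 0.30 to 0.35, adjusted p up to 0.130), all but those without Null control replicate 1, DKO control replicate 3 or Null etoposide replicate 1. That of Il1b was lost in 10 (log2 1.82 to 2.12, adjusted p up to 0.104), all but those without Null control replicate 1 or 3.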

How the results depend on the processing

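Of the members' differences recomputed under the alternatives, 899 kept their direction and side of the threshold, 28 lost and 3 gained a call, and 6, none of them called, changed sign. The cause was not tested. Those 6 were the Clec4a3 response in Null cells, 0.0080 with library size alone and -0.10 to 0.0585 without 1 library, and the Clec4a2 interaction, -0.14 without Null control replicate 3 (range without 1 library -0.14 to 0.42). Uncalled differences of other genes that changed sign were, with library size alone, Fcer1g between the lines after etoposide (-0.00880) and Ptpn11 in the DKO response (0.0529, and 0.00034 with DESeq2 size factors). Ranges that crossed 0 without 1 library were -0.087 to 0.15 for Fcer1g after etoposide, -0.071 to 0.32 for Fcer1g and -0.083 to 0.13 for Ptpn11 in the DKO response, -0.065 to 0.0068 for Tyrobp between the control groups and -0.21 to 0.067 for the Card9 interaction. Requiring an absolute log2 change of at least 1 left 5 members called in the Null response, 5 between the lines in control, 5 after etoposide and 3 in the difference of responses, and 2381, 2370, 1365, 2167 and 816 genes in all (Null response, DKO response, control, etoposide, difference of responses). Fitting only the control groups gave 2073 genes between the lines. Without 1 library at a time, members called ran from 8 to 8 (Null response), 9 to 9 (DKO response), 7 to 9 (control), 9 to 9 (etoposide) and 5 to 6 (difference of responses), and all genes from 5855 to 7956, 5834 to 7823, 2722 to 4745, 4723 to 6957 and 1209 to 2057. Same-numbered libraries did not deviate together (correlations from -0.54 to 0.39), so the numbers were not taken as pairs. Correlations between differently numbered libraries of different groups ran from -0.49 (DKO control 1 with DKO etoposide 3) to 0.58 (Null control 3 with DKO control 1). What such libraries share was not tested, and the main fit holds no term for it. With the replicate number as a block, the Clec5a interaction was 0.35 (adjusted p = 0.0680), and no other call of a member changed. The levels of Clec4n in Null control cells rest on 1 to 9 counts per library, which limits folds against that group.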
